A study of Mus musculus with 8 samples.

Results

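Replication-dependent histone genes encode the linker histone H1 and the core histones H2A, H2B, H3 and H4 that package newly copied DNA. They were selected by gene symbol: every row named in the older Hist1 to Hist4 style for these classes, or in the newer H1f, H2ac, H2bc, H3c and H4c style, without names ending in -ps. This gave 64 of the 45777 genes in the expression table: 6 for H1, 18 for H2A, 17 for H2B, 12 for H3 and 11 for H4. The rule reads symbols and no expression value, though the family was picked with earlier results of these data known. In the RefSeq annotation of GRCm38.p6, 30 lie on chromosome 13 between 23533875 and 23934913, 23 between 21715711 and 22043658 of the same chromosome, and 10 on chromosome 3 between 96219885 and 96270192. The remaining gene, Hist1h2al, lies alone at chr13:51200084-51203066 and is typed as a transcribed pseudogene in the table.

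Total RNA without ribosomal RNA was sequenced from mouse neural stem cells of the subventricular zone, a region beside the lateral ventricle that keeps producing neurons in the adult. The 8 samples came from control (wild-type) mice and from S1PR1-deficient mice, 4 each, and S1PR1 is a G-protein-coupled receptor for sphingosine-1-phosphate. Within each genotype 2 samples were treated with ApoM-HDL and 2 with ApoM+HDL, high-density lipoprotein marked minus or plus for apolipoprotein M, the carrier of that lipid on the particle. All samples received a lipoprotein preparation, and none was untreated. The genotype label of the S1PR1-deficient samples reads S1pr1 deletion. The sources used here give neither the age of the mice, nor how the gene was deleted, nor whether replicates were separate cultures or animals. The p-values therefore measure only the spread between these samples, which may be technical.

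The libraries carry the codes CH, CV, GH and GV, each with numbers 1 and 2. C was read as control from its first letter, and G as S1PR1-deficient only by elimination. No source used here says which preparation H and V stand for, so H against V has no direction between the preparations. The targeted gene did not separate the genotypes. S1pr1 was at 24.8 and 22.6 CPM (counts scaled to 1000000 per library) in CH, 20.3 and 15.8 in CV, 23.2 and 21.4 in GH, and 23.3 and 22.9 in GV. Its log2 difference of G from C over both letters was 0.08 (SE 0.08, adjusted p = 0.569, edgeR), so the count goes against the reading of G as receptor-deficient. Which part of the gene was removed is not given in the sources used here, and a count over the whole gene cannot show a partial deletion. Every direction below is accordingly one between libraries coded G and libraries coded C.

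Histone messages of this family are made in S phase, when DNA is copied, and are removed when copying ends. They lack introns in most cases and carry no poly(A) tail. Their 3′ end is instead formed by cleavage just after a short stem-loop, which is bound by the stem-loop binding protein Slbp, and the U7 small nuclear ribonucleoprotein guides the cut. A library of total RNA can hold these messages, whereas selection for poly(A) tails would miss most of them.

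The stem-loop is shown because it is the feature that sets this family's messages apart and because its letters differ by class. It was sought in the GENCODE transcripts, on the transcript's own strand, as 16 bases: 6 complementary pairs that begin with GG, end with CC and have T and A at the top, around a loop of 4 bases with T at the first and the third. It was found in 42 of the 63 members with a transcript and in 70 of 22366 of all genes, or 0.313%. In several models the transcript ends with the coding sequence, and no match says only that the letters are not in that model. There were 8 versions, given here once each from 5′ to 3′ with the stem-loop in capitals and 6 bases on either side.
H1f4: cccaaaGGCTCTTTTCAGAGCCacccac
H2bc12: accaaaGGCTCTTTTAAGAGCCactaaa
H2ac20: caaaaaGGCTCTTTTTAGAGCCaccaaa
H3c8: tttaaaGGCTCTTCTTAGAGCCacccat
H4c3: acaaaaGGCCCTTTTCAGGGCCacccac
H4c14: cctaacGGCCCTTTTTAGGGCCaaccac
H4c2: acaaaaGGTCCTTTTCAGGACCactcac
H4c1: accaaaGGCCCTTCTCAGGGCCgcccac

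The version of H1f4 was the most frequent, with 24 genes of the H1, H2A, H2B and H3 classes and no H4 gene. The version of H2bc12 was found in 6 genes. The version of H4c3 was found in 5 genes, all of class H4, that of H4c14 in 2 and that of H4c2 in 2, again all H4. The other 3 versions stood in 1 gene each.

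Promoters are shown because the members moved together across the libraries and because the classes hold different short motifs. RefSeq (GRCm38.p6) gave windows of 300 bases, 250 before the start and 50 after it, for 58 of the 64 members. The motifs, each sought on both strands, were CCAAT, the TATA box TATAAA, the octamer ATTTGCAT, GGTCCG, a part of the H4 element called site II, and AAACACA, known as the H1 box. None of these motifs contains another. The 250 bases before the start of 1 gene of each of 3 classes follow, with matches in capitals. H1f4 is on the minus strand at chr13:23622559-23622808, H2bc12 on the plus strand at chr13:22035571-22035820, and H4c3 on the minus strand at chr13:23698459-23698708.
H1f4: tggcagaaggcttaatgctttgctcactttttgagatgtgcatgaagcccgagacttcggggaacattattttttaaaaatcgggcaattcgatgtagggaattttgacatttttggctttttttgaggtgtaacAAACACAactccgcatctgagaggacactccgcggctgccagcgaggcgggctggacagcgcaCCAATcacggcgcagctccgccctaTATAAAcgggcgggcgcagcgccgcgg
H2bc12: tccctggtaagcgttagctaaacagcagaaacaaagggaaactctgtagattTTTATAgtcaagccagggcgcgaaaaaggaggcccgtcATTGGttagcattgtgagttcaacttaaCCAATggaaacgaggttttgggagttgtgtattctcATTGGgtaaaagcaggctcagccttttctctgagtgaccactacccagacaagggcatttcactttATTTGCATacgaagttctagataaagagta
H4c3: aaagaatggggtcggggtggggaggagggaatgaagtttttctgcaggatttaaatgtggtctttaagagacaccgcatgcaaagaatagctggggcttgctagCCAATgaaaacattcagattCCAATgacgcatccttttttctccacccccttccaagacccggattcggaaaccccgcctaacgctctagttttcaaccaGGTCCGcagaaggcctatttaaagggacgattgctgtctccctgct

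CCAAT stood in 51 of the 58 member windows, against 37.9% of the 27025 windows of all genes. All H1, H2A, H2B and H3 windows held it, but 3 of the 10 H4 windows did. TATAAA stood in 34 member windows, against 14.2% of all windows. The octamer was found in 6 of 17 H2A and 6 of 15 H2B windows and in no window of the other classes, against 1.8% of all windows. GGTCCG stood in 9 of 10 H4 windows, against 8.4% of all windows, and AAACACA in 5 of 6 H1 windows, against 7.1%. Other classes held them too: GGTCCG stood in 1 of 15 H2B and 1 of 10 H3 windows. AAACACA was found in 2 of 17 H2A and 2 of 15 H2B windows. Among these 58 members, H2A and H2B genes also formed 10 pairs transcribed away from each other, with starts 164 to 281 bases apart. The windows of a pair thus share sequence and are not independent.

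The libraries held 39619305 to 45698186 counts. Of the 64 genes, 62 passed the filter on low counts, which kept 17644 genes. The exceptions were H1f6, with 0 to 8 counts a library, and H2ac1, with 1 to 3; both are known for expression in the testis. The stem cell markers Nes, an intermediate filament of neural progenitors, and Sox2, a transcription factor of the same cells, were at 647 to 813 and 94.97 to 128.5 CPM. Gfap, which marks many stem cells of the zone as well as astrocytes, was at or near 0, between 0 and 0.832 CPM, and Olig2 of the oligodendrocyte lineage was at 483 to 573 CPM. The summed stem and progenitor list was at 6155 to 6195 CPM in C and 5756 to 5892 in G, and within V 4 of its 11 genes were lower in G and 1 higher, against 13.4% and 11.6% of all genes. The microglia and blood list summed to 0.0717 to 0.293 CPM, with Aif1, Csf1r and Tyrobp at 0 in all 8 libraries, and the endothelial and pericyte list to 1.06 to 2.54 CPM, with Pdgfrb at 0. No tested gene of these lists was called in any of the comparisons in edgeR, and most were filtered out as too low.

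The 64 genes together took 2.08% and 1.893% of all counts in CH1 and CH2, 2.373% and 2.403% in CV1 and CV2, 1.994% and 1.732% in GH1 and GH2, and 1.245% and 1.598% in GV1 and GV2. The GV libraries were thus below the other 6, and the CV libraries above them, with no overlap. The mean of GV was 0.595 times that of CV, whereas the mean of GH was 0.938 times that of CH and the CH and GH libraries overlapped. These sums carry no test. A lower share in bulk RNA cannot tell fewer cells in S phase from less histone RNA per cell.

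**Figure D1:**
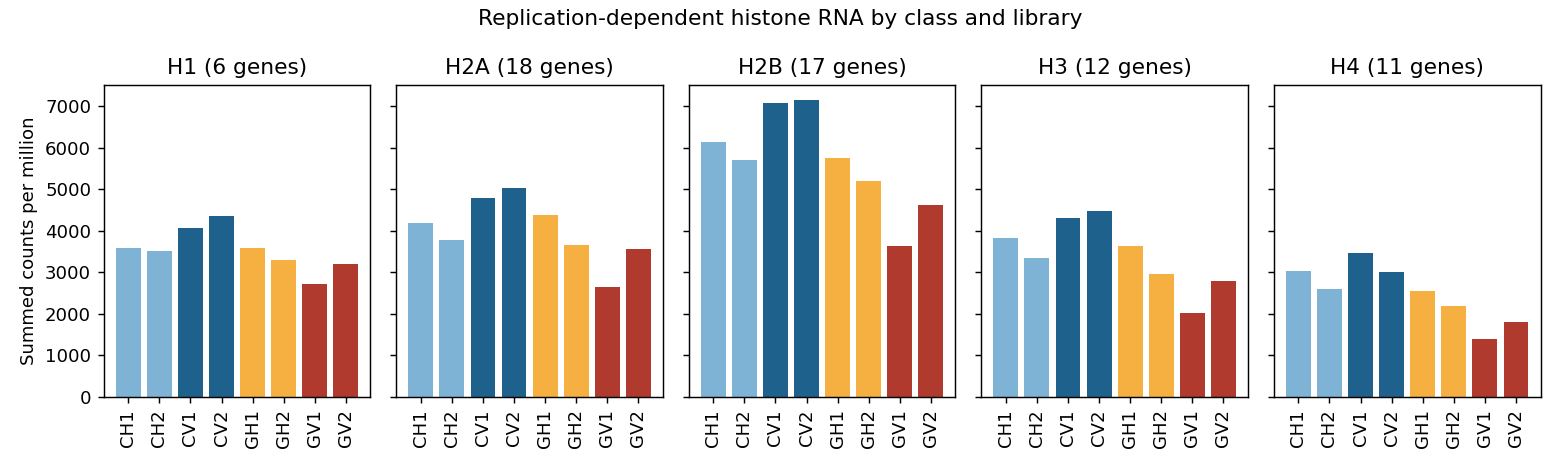
Bars give the summed CPM of the genes of each class in each of the 8 libraries, coloured by code (CH light blue, CV dark blue, GH orange, GV red). GV1 has the lowest bar in all 5 classes, and GV1 and GV2 are below CV1 and CV2 in each.

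The fall from CV to GV differed in size by class. The ratio of the GV to the CV mean was 0.703 for H1, 0.632 for H2A, 0.58 for H2B, 0.549 for H3 and 0.496 for H4. H4 made up 12.48% to 14.64% of the histone counts in C and 11.17% to 12.81% in G, while H1 made up 17.13% to 18.54% in C and 17.99% to 21.91% in G. The share of H2B stayed between 28.88% and 30.17% in all libraries. The differences between the classes were not tested.

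By position, the ratio of GV to CV was 0.613 for the 30 genes of the distal group on chromosome 13, 0.587 for the 23 of the proximal group and 0.547 for the 10 on chromosome 3. Each group therefore showed a lower mean in GV.

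Levels can be compared between genes only per length. Among the 57 members whose annotated span is under 1000 bases, the mean CPM per kilobase over the 8 libraries was highest for H1f2, at 1331, followed by H4c4 at 1177 and H2bc18 at 1158. The class medians of this level were 845 for H1, 837 for H2B, 614 for H4, 446 for H3 and 372 for H2A. Within H2B the range was 17.4 for H2bc1, a variant of the testis, to 1158. Many copies of a core histone class are close in sequence: for pairs with frames of equal length, the identity of the coding sequence had a median of 97.2% and a lowest value of 81.4% for H2A, 97.1% and 82.9% for H2B, 97.6% and 93.9% for H3, and 94.2% and 87.8% for H4. It was not computed for H1. How reads that fit several copies were counted is not given in the sources used here, so the level of a single core histone copy is uncertain, and the class sums are less exposed to it.

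Within V, 60 of the 62 tested genes were lower in G than in C (edgeR's quasi-likelihood test, Benjamini-Hochberg adjusted p under 0.05 over all 17644 genes), and none was higher. The background in this comparison was 13.4% of all genes lower and 25% called in either direction. The median log2 difference was -0.83 over the 62 genes and -0.02 over all genes tested. Without GV1 the members' median was -0.64, and without GV2 it was -1.06.

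Linker histone genes were lower by the least. H1f2 was at 972 and 914 CPM in CH, 1098 and 1154 in CV, 985 and 894 in GH, and 763 and 937 in GV. Both GV values were below both CV values, but GV2 was above GH2 and CH2. The log2 difference of GV from CV was -0.48 (SE 0.09, adjusted p = 0.00262, edgeR). H1f4 read 885 and 831 CPM in CH, 988 and 1118 in CV, 849 and 782 in GH, and 671 and 741 in GV. For this gene both GV libraries were below the other 6, with a log2 difference from CV of -0.65. All 5 tested H1 genes passed, with a median of -0.58.

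In class H2A, whose proteins pair with H2B in the nucleosome, 16 of 17 tested genes were lower in GV than in CV, with a median log2 difference of -0.74. H2ac18 was at 506 and 458 CPM in CH, 600 and 607 in CV, 511 and 432 in GH, and 331 and 394 in GV. Its GV libraries were the lowest pair and its CV libraries the highest, with a log2 difference of -0.80 (SE 0.10, adjusted p = 0.000242, edgeR). H2ac4 read 391 and 362 CPM in CH, 449 and 450 in CV, 444 and 361 in GH, and 261 and 384 in GV. Here GV2 was within the range of CH and GH, and the log2 difference of GV from CV was -0.55 (SE 0.14). H2ac8 did not pass: it was at 116 and 110 CPM in CH, 117 and 123 in CV, 126 and 94.2 in GH, and 70.5 and 118 in GV. GV2 lay between the CV values, and the log2 difference was -0.41 (SE 0.19, adjusted p = 0.131, edgeR).

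In class H2B, 16 of 17 genes were lower in GV, with a median of -0.83. H2bc18, the H2B gene with the highest level per length, was at 652 and 634 CPM in CH, 739 and 678 in CV, 566 and 529 in GH, and 340 and 430 in GV. All 4 G libraries were below all 4 C libraries, and GV was 1.93 times lower than CV (log2 -0.95, SE 0.10, adjusted p = 0.000149, edgeR). H2bc12, whose stem-loop and promoter are printed above, read 566 and 521 CPM in CH, 662 and 668 in CV, 534 and 497 in GH, and 331 and 415 in GV. GV was the lowest pair and CV the highest, with a log2 difference of -0.91.

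Hist1h2bp had the smallest adjusted p of the members within V. It was at 194 and 167 CPM in CH, 234 and 235 in CV, 164 and 154 in GH, and 111 and 129 in GV, a log2 difference of GV from CV of -1.04 (SE 0.09, adjusted p = 4.59e-05, edgeR). All 4 G libraries were below all 4 C libraries here too. H2bc1 read 7.45 and 6.72 CPM in CH, 10.6 and 11.2 in CV, 6.55 and 8.15 in GH, and 4.25 and 5.15 in GV. Here too GV was the lowest pair and CV the highest, and the log2 difference of GV from CV was -1.28 (SE 0.15). H2bc21 did not pass, at 2.47 and 3.34 CPM in GV against 3.23 and 3.61 in CV, which are 107 to 160 counts in each library. Its difference of -0.31 (SE 0.22, adjusted p = 0.345, edgeR) was the smallest of the 62.

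All 12 H3 genes were lower in GV than in CV, with a median of -0.91. H3c6, the H3 gene with the highest mean CPM, was at 449 and 399 CPM in CH, 494 and 510 in CV, 411 and 340 in GH, and 235 and 312 in GV. Its GV values were below those of the other 6 libraries. H3c14 on chromosome 3 read 304 and 252 CPM in CH, 370 and 412 in CV, 281 and 234 in GH, and 170 and 203 in GV, a log2 difference of GV from CV of -1.14 (SE 0.11, adjusted p = 0.000148, edgeR). Its neighbours H3c13 and H3c15 gave -1.09 and -1.13, and the lowest value of the class was -1.15 for H3c8.

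H4 genes, whose proteins pair with H3, had the largest median, -1.07, and all 11 passed. H4c4 was at 561 and 502 CPM in CH, 629 and 558 in CV, 498 and 409 in GH, and 277 and 352 in GV. Its GH values were below its CH values, and its GV values lower again. H4c3 read 341 and 270 CPM in CH, 376 and 320 in CV, 248 and 211 in GH, and 139 and 170 in GV. All G libraries were below all C libraries, and the log2 difference of GV from CV was -1.24 (SE 0.13, adjusted p = 0.000174, edgeR). H4c14 on chromosome 3 gave the largest difference of all members: it was at 111 and 104 CPM in CH, 154 and 132 in CV, 94.9 and 83.1 in GH, and 49.9 and 66.9 in GV. GV was 2.58 times lower than CV (log2 -1.37, SE 0.13, adjusted p = 8.47e-05, edgeR).

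Of the 62 genes with a mean of at least 1 CPM, GV1 was the lowest library for 62, against 13.3% of all tested genes. CV2 was highest for 41, CV1 for 20 and GH1 for 1, against 17.3% of all genes for CV2 and 11.5% for CV1. Both GV libraries were below both CV libraries for 60 genes, against 25.9% of all genes, and below both GH libraries for 52, against 18.8%. Both CV libraries were above both CH libraries for 55 genes, against 29.6%. All 4 G libraries were below all 4 C libraries for 16, against 3.63%. Both GH libraries were below both CH libraries for 16, against 16.5% of all genes.

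**Figure D2:**
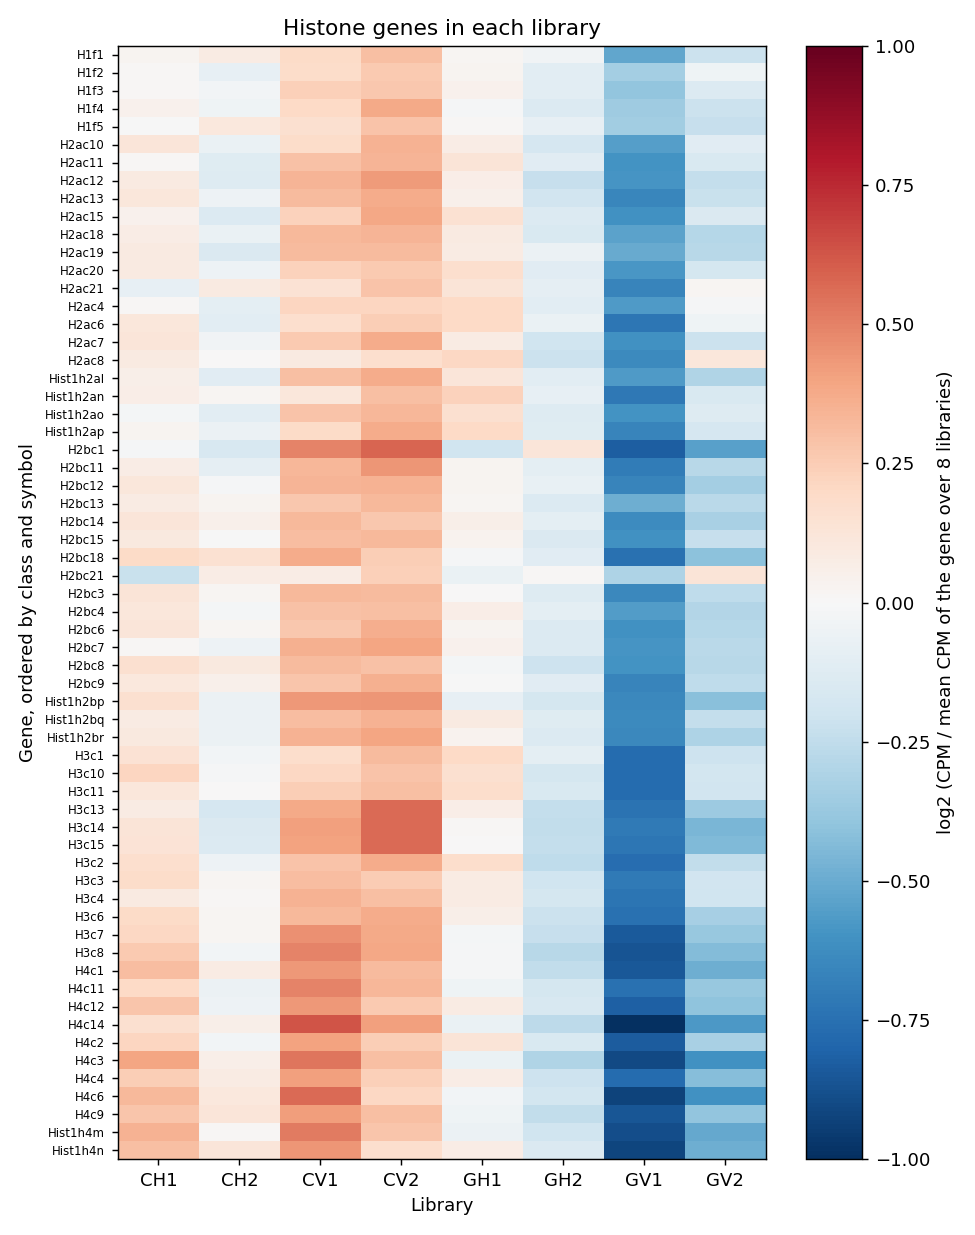
Each row is 1 of the 62 genes with a mean of at least 1 CPM and each column a library, and colour gives log2 of CPM over the gene's mean (red above, blue below). GV1 is the lowest library in all 62 rows, and CV2 is the highest in 41.

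Within H, none of the 62 genes passed the edgeR test, against 1.81% of all genes called in either direction, 0.759% higher and 1.05% lower. DESeq2 also called 0, against 3.07% of all genes in either direction. In edgeR 11 genes had an unadjusted p under 0.05. The share of all genes at that threshold was not computed, so this count says nothing particular to the members. The median log2 difference of GH from CH was -0.12, with 54 of 62 values below 0, and it was 0.003 over all genes tested. The class medians were -0.11 for H1, 0.00 for H2A, -0.14 for H2B, -0.14 for H3 and -0.31 for H4. The most negative value was -0.45 for H4c3 (SE 0.13, adjusted p = 0.111, edgeR; 95% interval -0.73 to -0.17). The most positive value was 0.06 for H2ac4, with an interval of -0.25 to 0.37. For H4c14 the interval was -0.58 to -0.04 around -0.31, and for H1f2 -0.24 to 0.15 around -0.04.

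**Figure D3:**
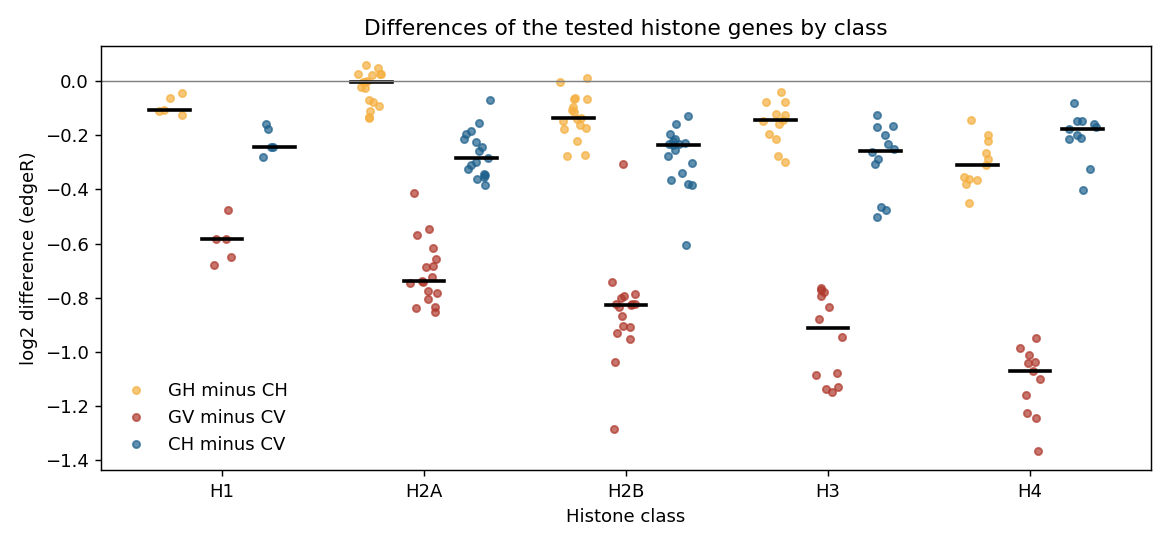
Points are the log2 differences of the 62 tested genes by class, for GH minus CH (orange), GV minus CV (red) and CH minus CV (blue), and black bars are class medians. The GV minus CV medians run from -0.58 for H1 to -1.07 for H4, and those of GH minus CH lie between -0.31 and 0.00.

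Over both letters, 57 of the 62 genes were lower in G and none higher, against a background of 10.2% lower, 9.03% higher and 19.2% in either direction. The median was -0.48. The members that did not pass were H2ac4, H2ac6, H2ac8, H2ac21 and H2bc21, 4 of them in class H2A. This average joins a small difference within H to a large one within V, and the difference between the 2 was itself tested.

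The genotype difference was less negative with H than with V for 49 of the 62 genes, by the interaction term of the same edgeR model. The background was 3.93% of all genes in that direction, 3.41% in the other and 7.35% in either. The median interaction was 0.73 on the log2 scale. All 11 H4 genes passed, as did 16 of 17 H2B genes, 11 of 17 H2A, 7 of 12 H3 and 4 of 5 H1. The largest value was 1.30 for H2bc1 (SE 0.21, adjusted p = 0.00979, edgeR), followed by 1.05 for H4c14 and 1.01 for H3c13. The count rests on single libraries: most of these calls were lost without GH1, CV2, CH2, GH2 or CV1, and more were made without GV2. Calls over all genes fell and rose in the same settings. DESeq2 called 25.

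H was lower than V in the C libraries for 9 genes: H1f4, H2ac19, Hist1h2al, H2bc1, H2bc7, Hist1h2bp, H3c13, H3c14 and H3c15. The background was 4.99% lower, 5.68% higher and 10.7% in either direction. The median over the 62 genes was -0.24, and all 62 values were below 0. The values that passed ran from -0.28 for H1f4 to -0.61 for H2bc1 (SE 0.15, adjusted p = 0.0244, edgeR). No H4 gene passed, and the H4 median was -0.18. All or most of these calls were lost without CH2, CV2 or CV1, and more were made without GV1 or GV2. Calls over all genes fell and rose in the same settings.

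In the G libraries the order was the opposite: H was higher than V for 15 genes, against 1.14% of all genes higher, 0.136% lower and 1.28% in either direction. They were 7 H4 genes (H4c1, H4c3, H4c4, H4c6, H4c14, Hist1h4m and Hist1h4n), 6 H2B genes (H2bc4, H2bc12, H2bc14, H2bc18, Hist1h2bp and Hist1h2br) and 2 H2A genes (H2ac19 and Hist1h2al). The median over the 62 genes was 0.46, and none was below 0. Short coding genes other than the members were also higher with H, in length bins chosen after values were seen and described below. Of 69 with a longest GENCODE transcript under 600 bases, 17.39% were called higher, with a median of 0.29. Of 418 from 600 to 1000 bases, 12.44% were called higher, with a median of 0.27. The share of the members was 24.2%. Hist1h4n and H4c6 had the largest values, 0.70 each (adjusted p = 0.0295 and 0.0269, edgeR). All or most of these calls were lost without GH1, GH2, GV1, CV2 or CV1, and more were made without GV2. Calls over all genes fell and rose in the same settings. This comparison shares the GV libraries with the comparison within V, and the preceding one shares the CV libraries with it.

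Genes of the surrounding pathway moved by less. In a list of 26 genes for the transcription, 3′ processing and decay of histone messages, 7 were lower and 2 higher within V, with a median of 0.05. Of all genes tested, 13.4% were lower and 11.6% higher in this comparison. Slbp itself was at 76.4 and 82.0 CPM in CH, 74.6 and 75.1 in CV, 85.8 and 85.4 in GH, and 82.0 and 88.8 in GV, and was not among those called. Npat, the coactivator of histone transcription, read 51.1 to 58.9 CPM in C and 58.2 to 68.7 in G, and was not called either. The lower genes were Upf1, which acts in the decay of these messages (log2 -0.41), Sympk, the scaffold of the cleavage complex (-0.46), Gon4l, Srrt, Cpsf1, and the cell cycle genes Cdk2 and Ccne1. The higher genes were Tut4, a uridylyltransferase (0.29), and Casp8ap2, also known as FLASH, which is needed for the cleavage (0.24).

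Among 22 S phase genes, 12 were lower and none higher within V, with a median of -0.23. The background here, and for the chaperones and variants below, was 13.4% of all genes lower and 11.6% higher. Mcm3, a subunit of the replicative helicase, gave -0.34 (SE 0.06), Tyms, which makes thymidylate, -0.42 (SE 0.07), and E2f1, a transcription factor of S phase entry, -0.49 (SE 0.11). The summed CPM of the list was 2624 to 2741 in C and 2518 to 2622 in G. Of 19 histone chaperones, which carry histones to DNA, 9 were lower and 2 higher, with Chaf1a of the replication-coupled assembly factor at -0.45 and Atrx at 0.41. Of 11 variant histone genes, which are expressed outside S phase in most cases, 8 were lower and none higher, with a median of -0.32. H2afx, whose message can also end in a stem-loop, gave -0.68 (SE 0.12), and H3f3a, which encodes H3.3, gave -0.22. Within H, none of the genes of these 4 lists passed in edgeR, against 1.81% of all genes.

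Further histone genes stand outside the symbol rule and were looked at after values were seen. H2c8 in the table, which RefSeq names H4c8, was at 492 and 398 CPM in CH, 579 and 521 in CV, 424 and 359 in GH, and 222 and 309 in GV. H4f16, H2bu2 and H2aw gave log2 differences of -1.30, -1.46 and -1.19 within V, and H2c8 gave -1.12. All 4 passed within V and none within H in edgeR, against 13.4% of all genes lower within V and 1.05% within H.

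Members resembled each other closely across the 8 libraries, though the pattern was not theirs alone. Of the tested genes outside the rule, 111 had a correlation above 0.95 with the members' sum. The Pearson correlation of log2 CPM between 2 members (TMM-scaled) had a median of 0.961 over 1891 pairs, from 0.495 up, and the points share libraries and, among close copies, possibly reads. The genes outside the rule with the pattern most like the members' sum were Ppih, a cyclophilin of the spliceosome (r = 0.994), H2c8 (0.992), Gemin7, a subunit of the SMN complex (0.990), 0610010K14Rik (0.989) and Polr2j, a subunit of RNA polymerase II (0.987), over 8 libraries.

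Of 6 short noncoding RNAs, listed after values were seen, 5 were lower within V and none higher, against 13.4% and 11.6% of all genes. The exception, Rnu7, the RNA of the U7 particle, was at 0.146 to 0.328 CPM and was not called. Rn7s1, the RNA of the signal recognition particle, was at 16963 and 15855 CPM in CH, 18556 and 15657 in CV, 11937 and 12357 in GH, and 7441 and 8192 in GV. Rn7sk, which holds the elongation factor P-TEFb, read 5937 and 5584 CPM in CH, 6453 and 5328 in CV, 4965 and 4434 in GH, and 2455 and 3171 in GV. Both were lower in every G library than in every C library. Rmrp and Rpph1, the RNAs of RNase MRP and RNase P, were also lower within V, by log2 differences of -1.35 and -1.04. Within H, Rn7s1 and Rn7s2 passed at -0.47 each, where no member did. These 2 had nearly the same CPM in every library, such as 16963 and 16958 in CH1, and may not be separate measurements. Malat1, a long nuclear RNA, went the other way, at 8217 to 8577 CPM in C, 10131 and 10488 in GH, and 13841 and 11749 in GV. For H against V in C the median of these RNAs was -0.05, against -0.24 for the members. The part of these RNAs' shift within V in the histone result was not tested.

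**Figure D4:**
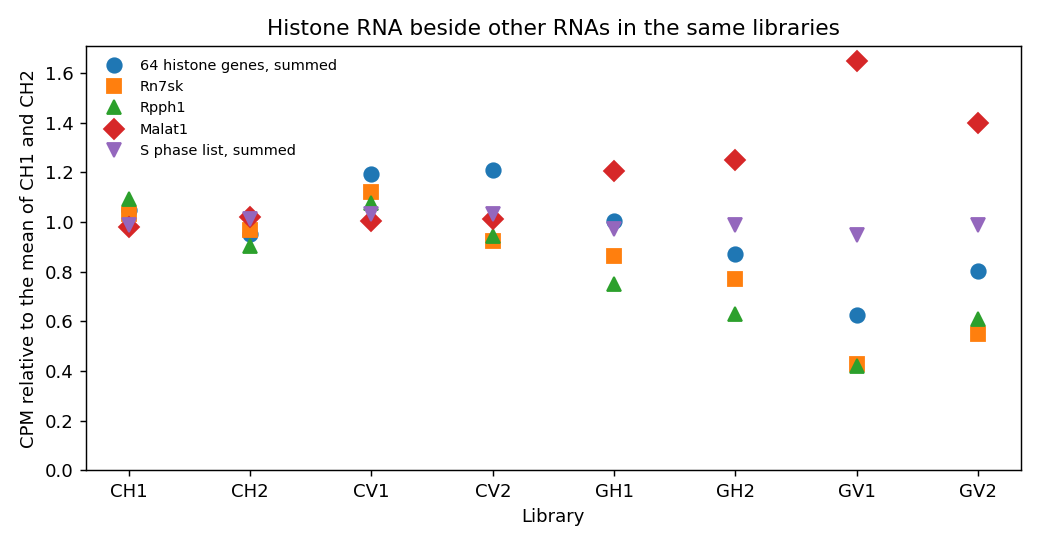
Points give CPM in each library relative to the mean of CH1 and CH2, for the summed 64 histone genes, Rn7sk, Rpph1, Malat1 and the summed S phase list. In GV1 and GV2 the histone sum stands at 0.627 and 0.804, Rn7sk at 0.426 and 0.55, Malat1 at 1.648 and 1.399, and the S phase sum at 0.949 and 0.989.

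Transcript length also moved with the comparison within V, in bins chosen after values were seen. Coding genes other than the members, 97.9% of which had a GENCODE length, were grouped by their longest transcript. The median log2 difference within V was -0.37 for 69 genes under 600 bases, -0.30 for 418 genes of 600 to 1000, -0.15 for 2047 genes of 1000 to 2000, -0.02 for 5507 genes of 2000 to 4000 and 0.06 for 5361 longer genes. Of the genes under 600 bases, 28 were lower and 1 higher, and of those from 600 to 1000 bases, 198 were lower and 11 higher. The background was 13.4% of all genes lower and 11.6% higher. Within H the medians of the same bins were 0.05, 0.05, 0.00, -0.01 and 0.00. The members' median within V, -0.83, was more negative than that of the shortest bin, -0.37. Members were not placed in these bins, and some have long GENCODE transcripts: that of H1f3 runs 4884 bases past its stem-loop. Their lengths here are RefSeq spans of the 57 members under 1000 bases, a different measure. By span the shortest class, H4, had the most negative median and the longest, H1, the least negative. The median span was 760.5 bases for H1, 504 for H2A, 502 for H3, 478 for H2B and 405 for H4. Among 55 members, span and the log2 difference within V had a Pearson correlation of 0.321, and within classes it lay between -0.417 for H3 and 0.64 for H4. The part of length in the histone result was not tested.

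**Figure D5:**
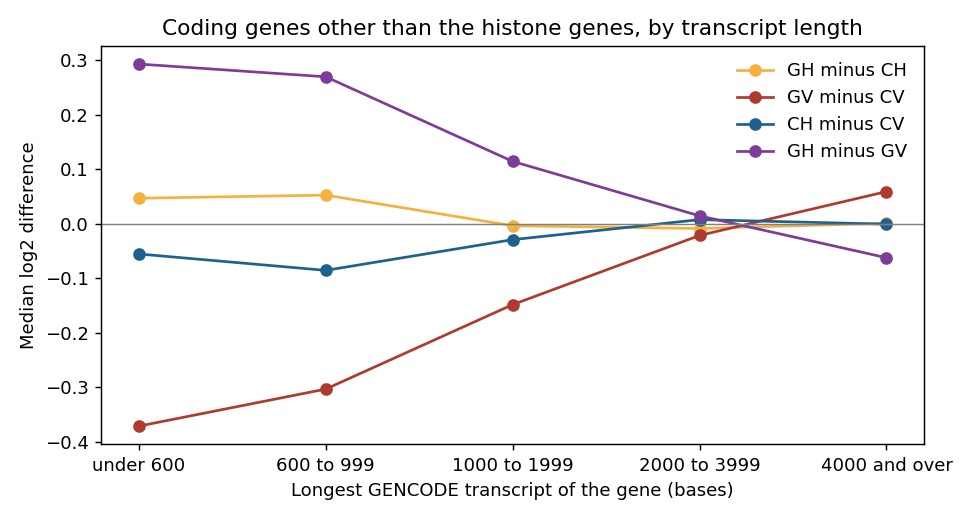
Lines give the median log2 difference of coding genes other than the members in 5 bins of longest transcript length, for GH minus CH (orange), GV minus CV (red), CH minus CV (blue) and GH minus GV (purple). GV minus CV runs from -0.37 in the shortest bin to 0.06 in the longest, and GH minus CH stays between -0.01 and 0.05.

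The H2A and H2B genes of a divergent pair can be set side by side, since they share promoter sequence. Pairs were sought only among the 58 members with a promoter window, so H2bc4 and H2bc21 could not enter. In 8 of the 9 pairs with both genes tested, H2B had the more negative log2 difference within V. The medians over the 9 pairs were -0.87 for H2B and -0.74 for H2A. H2ac8 gave -0.41 and its partner H2bc8 -0.80, the widest gap. The exception among the 9 was the pair of H2ac13 at -0.84 and H2bc13 at -0.74. Outside these pairs, H2bc21 lies next to H2ac20 and was the less negative, at -0.31 against -0.68. H2bc4 lies next to H2ac6 and was the more negative, at -0.79 against -0.62. By stem-loop version, the median within V was -0.79 for the 24 genes with the letters of H1f4 and -0.91 for the 6 with those of H2bc12, which both span several classes. It was -1.16 for the 5 H4 genes with the letters of H4c3, -1.20 for the pair with those of H4c14 and -0.99 for the pair with those of H4c2. Differences between the versions were not tested.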

How the data were processed

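RNA of 8 samples was made into stranded libraries after ribosomal RNA was removed, as the labels' protocols state. Tools named in the submitters' processing notes are HISAT2 2.1.0, StringTie 2.1.3b, Trimmomatic and bcl2fastq 2.20.0, and the build is GRCm38 (mm10). The deposited table holds raw read counts per gene, per the file headers, and those in 8 columns were used; 16 further columns of per-sample values were not used. How strand and reads that fit several genes were counted is not given in the sources used here. Columns were grouped by the first letter of their code: C as control, and G as S1PR1-deficient by elimination.

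Counts, 39619305 to 45698186 per library, were fitted in edgeR 4.0.16 (R 4.3.3) with a mean for each of the 4 codes, TMM scaling, filterByExpr by code and the quasi-likelihood test, adjusted by Benjamini-Hochberg over all 17644 genes at 0.05. The script was tested on simulated data. CPM are counts scaled to 1000000 per library. Replicates differed beyond counting noise, by a chi-square per degree of freedom of 5.4 to 14.5. At this depth, tested members had at least 107 counts in each library. Alternatives were DESeq2 1.42.0, its size factors in edgeR, no filter, each library left out and a replicate block.

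Genes named were the 3 of each class with the highest mean CPM, up to 25 that passed with the smallest adjusted p, the extremes of each comparison, and the 5 genes outside the rule most like the summed members; the largest were described in full. Exceptions chosen after values were seen are the genes called in a count, H3c13, the pathway genes with values, the genes outside the symbol rule, the short RNAs and the divergent pairs. The members and lists were chosen with earlier results of these data known. The other marker lists, neuroblast and neuron, oligodendrocyte, and ependymal, summed to 16.9 to 24.4, 487 to 578 and 13.3 to 19.1 CPM. Of their genes only 5, 4 and 3 were tested, with 0 to 2 calls in each comparison. For H against V in C, 2 of the 5 and 2 of the 4 were lower, against 4.99% of all genes. Over both letters 1 of the 5 was higher and 1 lower, against 9.03% and 10.2% of all genes.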

Additional observations from a re-analysis of the deposited data

Results flagged for a closer look

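In 32 of the 37 named genes the difference of G from C was less negative with H than with V (interaction term, edgeR, adjusted p under 0.05). This difference between the letters is the reason each is listed. The named genes were picked partly by small adjusted p, so the choice itself favours a high share. Among all 62 tested members the count was 49, against 3.93% of all genes in that direction and 7.35% in either. On the log2 scale the H1 genes were H1f5 at 0.46, H1f3 at 0.52 and H1f4 at 0.54. The H2A genes were H2ac18 at 0.73, H2ac15 at 0.76, H2ac19 at 0.77 and Hist1h2al at 0.83. The H2B genes were H2bc13 at 0.59, H2bc3 at 0.65, H2bc6 at 0.66, H2bc18 at 0.68, H2bc4 at 0.69, H2bc14 at 0.70, H2bc12 at 0.79, Hist1h2br at 0.80, H2bc7 at 0.80, Hist1h2bp at 0.81 and H2bc1 at 1.30. The H3 genes were H3c6 at 0.73, H3c7 at 0.80, H3c8 at 0.85, H3c15 at 0.97 and H3c14 at 0.99. The H4 genes were H4c4 at 0.72, H4c1 at 0.74, Hist1h4n at 0.78, H4c3 at 0.79, Hist1h4m at 0.80, H4c2 at 0.81, H4c11 at 0.82, H4c6 at 0.87 and H4c14 at 1.05. These genes share libraries, and close copies within the core classes may share reads.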

How the results depend on the processing

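The count of genes lower in G within V was 60 with edgeR, 60 with DESeq2's size factors, 58 with DESeq2, 61 with no filter, 60 with a replicate block and 56 to 61 with a library left out. Over both letters it was 57, and 46 to 61 with a library left out. The numbers in the codes were not used as pairs in the main fit. Deviations of same-numbered libraries correlated at -0.046 to 0.010, which shows no pairing but cannot exclude one. With the replicate block the count of H above V in G was 3, against 15, and 0.776% of all genes were called in either direction. With no filter on low counts it was 56, that of H below V in C was 26 and that of genes lower within H was 7. Of all genes, 2.17%, 8.32% and 2.09% were called in either direction with no filter, in the same order. The cause of these higher counts was not tested. DESeq2 called 25 interactions, against 10.2% of all genes in either direction. Leaving out a library gave 0 to 3 genes within H, 0 to 32 for H below V in C, 0 to 61 for H above V in G and 1 to 61 interactions. Each setting kept 1 direction of the calls in a comparison. DESeq2 shared 4 calls with edgeR for H below V in C, where it made 6, and 9 for H above V in G, where it made 16. Over all genes, DESeq2 changed the split of higher and lower calls for H against V in G from 202 and 24 to 394 and 138, and for the interaction from 694 and 602 to 760 and 1035. Values near 0 changed sign with a library left out. The interaction of H2ac8 ran from -0.0044 without GV1 to 0.78 without GV2. H against V in G ran between the same settings from -0.13 to 0.34 for H2bc21 and from -0.073 to 0.71 for H2ac8. H against V in C ran from -0.22 without CV2 to 0.072 without CV1 for Hist1h4n, which was at 0.0048 without CH2, and from -0.34 to 0.025 for H4c6. S1pr1 over both letters ran from -0.011 without CV2 to 0.18 without CV1. Where 1 library was left, it was assumed to vary like the others.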
